A study of Mus musculus with 18 samples.

Results

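The genes for the peptide hormones vasopressin and oxytocin and for a receptor of each were followed through the hypothalamus, pituitary and ovary of transported and control mice. The 4 genes were Avp (vasopressin), Oxt (oxytocin), Avpr1a (vasopressin receptor 1A) and Oxtr (oxytocin receptor). They were chosen by symbol, among 22180 genes with an array cluster that names them alone, and each of the 4 had a single such cluster. The data are 18 arrays of the type Affymetrix Mouse Gene 2.0 ST, 6 for each of the 3 tissues, with 3 stress and 3 control arrays in every tissue. Female mice, labelled BABL/c, came as 10 littermate pairs split at random between the groups. They had a starting age of 6 weeks and were all superovulated at 9 weeks of age. The stress group was transported over 1000 km for nearly 10 h, the control group was not, and both were kept in the same laboratory otherwise. In each group, the best ovulating mouse by oocyte number (called high) and the poorest (called low) gave an array per tissue, and a pool of 8 other mice gave the third. The 3 arrays of a group therefore differ in ovulation class as well as in animal, and the p-values below measure the spread between such arrays. Marker genes placed the arrays in their labelled tissues: the summed linear signal of 7 hypothalamic neuropeptide genes was 8405 to 10488 in hypothalamus and 313 to 795 elsewhere, that of 6 anterior pituitary hormone genes 28308 to 37634 in pituitary and 141 to 4390 elsewhere, and that of 9 ovarian genes 20313 to 22858 in ovary and 266 to 4099 elsewhere. The highest pituitary and ovarian sums elsewhere came from pools: the stress pools of pituitary and hypothalamus also held ovarian transcripts, and both ovary pools held pituitary hormone transcripts.

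Vasopressin and oxytocin are made as long precursors in magnocellular neurons of the paraventricular and supraoptic nuclei, whose axons run down the pituitary stalk and release the cut peptides into the blood from the posterior lobe. Smaller neurons also send vasopressin to the anterior pituitary, where it promotes corticotropin release, and vasopressin marks part of the suprachiasmatic clock. Vasopressin acts on the receptors of Avpr1a, Avpr1b and Avpr2, and oxytocin on that of Oxtr. All except the receptor of Avpr2 work through Gq proteins, which raise cell calcium.

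Avp and Oxt are neighbours on mouse chromosome 2 with 0 annotated genes between them, and they lie on opposite strands. Their promoters are shown because these genes shared an order of levels over the tissues. Each run holds 300 bases around the gene's start in RefSeq, build GRCm38.p6. The Avp promoter spans chr2:130582539-130582838 on the minus strand, and the Oxt promoter spans chr2:130575919-130576218 on the plus strand. Capitals mark matches to the E-box CACGTG, a motif of clock transcription factors, and to the nuclear receptor motif TGACCT, searched on both strands (AGGTCA on the other).
Avp promoter: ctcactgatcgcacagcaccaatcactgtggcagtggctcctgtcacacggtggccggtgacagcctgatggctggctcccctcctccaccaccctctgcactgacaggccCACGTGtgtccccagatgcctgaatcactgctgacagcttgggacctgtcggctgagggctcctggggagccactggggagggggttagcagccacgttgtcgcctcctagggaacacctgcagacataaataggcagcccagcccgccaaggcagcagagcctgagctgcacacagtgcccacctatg
Oxt promoter: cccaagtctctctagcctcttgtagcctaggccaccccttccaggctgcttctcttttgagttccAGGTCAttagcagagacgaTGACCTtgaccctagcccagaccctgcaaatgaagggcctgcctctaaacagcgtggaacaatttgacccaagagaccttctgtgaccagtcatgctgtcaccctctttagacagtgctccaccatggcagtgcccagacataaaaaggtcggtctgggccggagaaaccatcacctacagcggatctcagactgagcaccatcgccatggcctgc
The Avp promoter held a CACGTG that began at position -139 from the start. The Oxt promoter held TGACCT at -166 and its reverse complement at -185. Of 32851 promoters of this length, 7.2% held CACGTG and 16.3% held TGACCT or its reverse complement. In the promoter of Oxtr, on chromosome 6, CACGTG began at -43 and the reverse complement of TGACCT at -98, while these letters were absent from the window of Avpr1a, on chromosome 10. A match describes the sequence alone.

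Avp was highest in hypothalamus, intermediate in pituitary and lowest in ovary, and Oxt followed the same order. All values are the deposited log2 signals, and a signal is compared between arrays for the same gene, not between genes. The median of the whole table is given only as a mark and does not show whether a gene is expressed. In hypothalamus, Avp measured 11.92, 11.88 and 11.18 in the stress high, low and pool arrays and 12.08, 11.67 and 11.16 in the control high, low and pool arrays. In pituitary, the Avp signals were 9.89, 9.74 and 8.72 under stress and 11.00, 9.87 and 8.33 in controls, in the same order of classes. Ovary gave 7.55, 6.99 and 6.11 in stress arrays and 7.14, 7.53 and 6.12 in control arrays. No 2 tissues overlapped, since the lowest hypothalamic Avp signal (11.16) lay above the highest pituitary signal (11.00) and the lowest pituitary signal (8.33) above the highest ovarian signal (7.55). Even the ovary stayed above the median of the whole table (4.85). The files used here carry no detection call, so a level near that of unexpressed genes was not set apart from none.

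The mean Avp signal came to 11.65 ± 0.39 in hypothalamus, 9.59 ± 0.95 in pituitary and 6.91 ± 0.65 in ovary (SD, n = 6 arrays each). Avp was 4.16-fold higher in hypothalamus than in pituitary (log2 difference 2.06, 95% confidence interval 1.65 to 2.46, adjusted p = 1.05e-07 in limma with the mouse or pool as a block). Hypothalamus exceeded ovary 26.8-fold (4.74, 4.34 to 5.15, adjusted p = 9.96e-13 in limma). Pituitary exceeded ovary 6.43-fold (2.69, 2.28 to 3.09, adjusted p = 3.03e-09 in limma). In bulk tissue such as this, fewer cells of a type and less RNA per cell cannot be told apart.

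Oxt in hypothalamus measured 9.89, 9.52 and 9.19 in the stress high, low and pool arrays and 10.04, 8.98 and 9.38 in the control arrays of the same classes. Pituitary gave 6.64, 6.11 and 6.53 in stress arrays and 7.23, 6.92 and 6.55 in control arrays. The ovarian Oxt signals were 4.57, 4.06 and 3.96 in stress arrays and 4.60, 4.70 and 4.47 in control arrays. Again no 2 tissues overlapped, and every ovarian Oxt value fell below the table's median. The means were 9.50 ± 0.40 in hypothalamus, 6.66 ± 0.38 in pituitary and 4.39 ± 0.31 in ovary (SD, n = 6 each). Oxt was 7.15-fold higher in hypothalamus than in pituitary (log2 difference 2.84, 95% interval 2.51 to 3.17, limma adjusted p = 1.60e-10), and 34.4-fold higher than in ovary (5.11, 4.78 to 5.44, limma adjusted p = 3.95e-14). In pituitary Oxt was 4.82-fold higher than in ovary (2.27, 1.94 to 2.60, limma adjusted p = 1.84e-09). An order of hypothalamus above pituitary above ovary without overlap was found for 579 genes, 2.61% of all, and Avp and Oxt are both among them.

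Avpr1a, a Gq-coupled receptor of brain, vessels and liver, was highest in hypothalamus. Its hypothalamic signals were 5.78, 5.60 and 6.10 in the stress high, low and pool arrays and 6.16, 6.24 and 5.87 in the control ones. In pituitary Avpr1a measured 4.56, 4.19 and 4.39 under stress and 4.55, 4.86 and 4.65 in controls. In ovary it measured 4.64, 4.74 and 4.95 under stress and 4.68, 4.73 and 4.44 in controls. Every hypothalamic array stood above every array of the other tissues, a pattern of 8.76% of genes, while pituitary and ovary overlapped. The hypothalamic mean of 5.96 ± 0.25 exceeded the pituitary mean of 4.53 ± 0.23 by 2.69-fold and the ovarian mean of 4.70 ± 0.16 by 2.40-fold (SD, n = 6 each; limma adjusted p = 3.61e-08 and 8.45e-08). The pituitary minus ovary difference of -0.16 had an interval of -0.42 to 0.09 and did not pass the test (limma adjusted p = 0.308). Both of these means lay below the table's median (4.85), and a level near that of unexpressed genes was not set apart from none.

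Oxtr was highest in the ovary, a tissue in which the receptor is known from granulosa and luteal cells. Its hypothalamic signals were 5.41, 5.46 and 5.28 in the stress high, low and pool arrays and 5.36, 5.84 and 5.70 in the control arrays. Pituitary gave 5.02, 5.28 and 5.58 under stress and 5.17, 5.37 and 5.25 in controls. Ovary gave 7.79, 7.42 and 6.93 under stress and 7.15, 7.58 and 7.51 in controls. The ovary arrays all lay above the rest, as they did for 8.64% of genes, and the ranges of hypothalamus and pituitary overlapped. Oxtr averaged 5.51 ± 0.22 in hypothalamus, 5.28 ± 0.19 in pituitary and 7.40 ± 0.31 in ovary (SD, n = 6 each). It was 3.70-fold lower in hypothalamus than in ovary (log2 difference -1.89, 95% interval -2.18 to -1.59, limma adjusted p = 2.58e-09) and 4.34-fold lower in pituitary than in ovary (-2.12, -2.42 to -1.82, limma adjusted p = 1.20e-09). Hypothalamus minus pituitary came to 0.23 (-0.06 to 0.53, limma adjusted p = 0.208). Of 24 alternative runs of the processing, 22 kept this call, and leaving out single arrays gave differences from 0.15 to 0.36. The difference passed without the pituitary stress pool (0.36, limma adjusted p = 0.0312), which gave the highest pituitary Oxtr value, 5.58. That pool also held ovarian transcripts, and their part in this value was not tested.

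**Figure D1:**
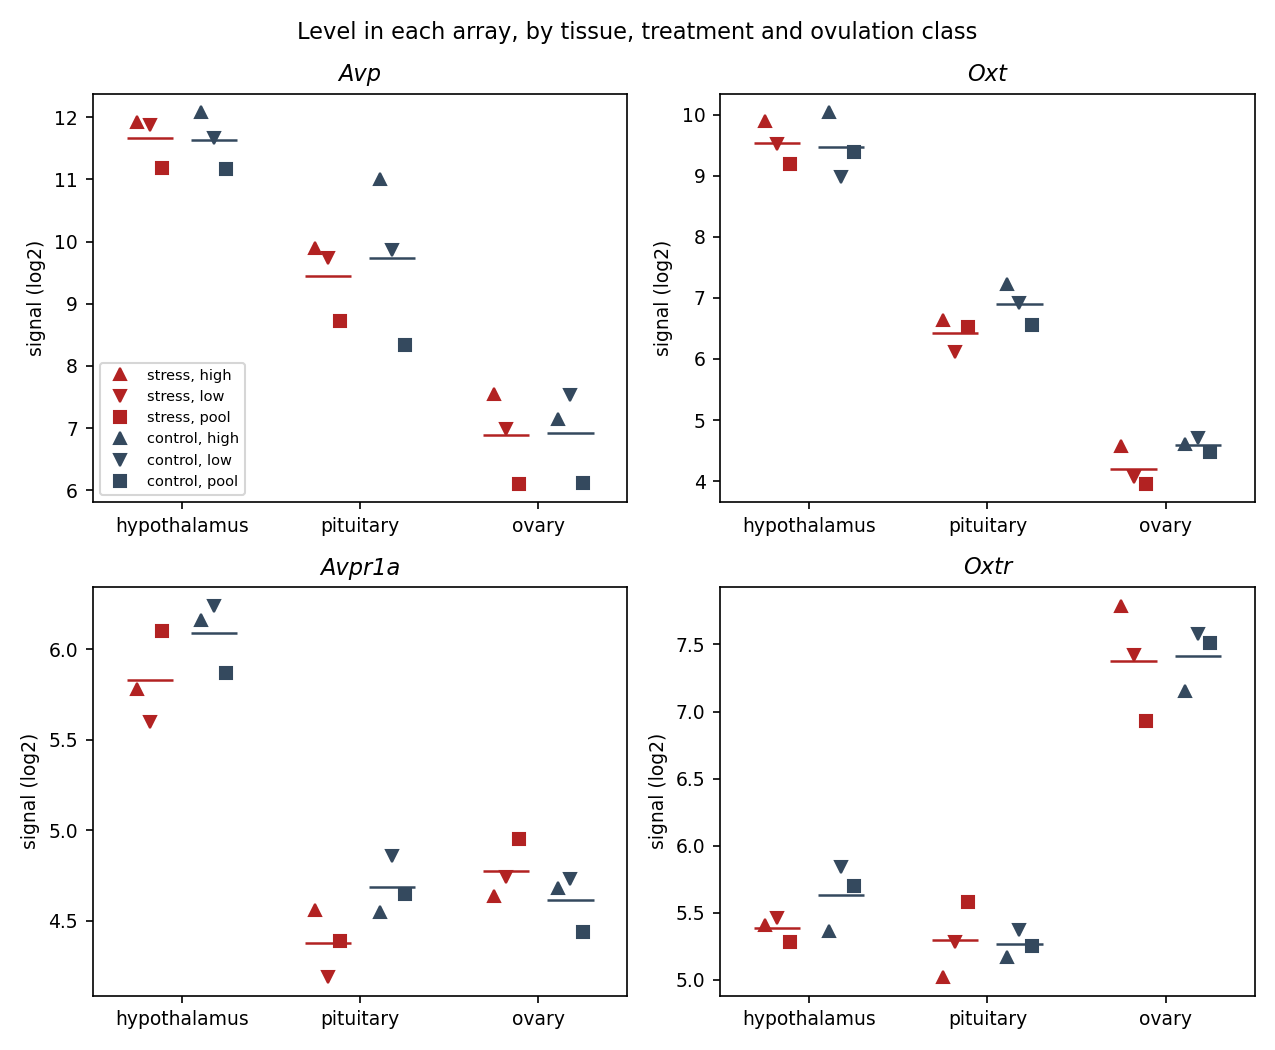
Log2 signal of Avp, Oxt, Avpr1a and Oxtr (y axis, scaled for each gene) by tissue (x axis) in stress (red) and control (blue) arrays, with symbols for the high mouse, the low mouse and the pool and a line at each group's mean of 3 arrays. Avp and Oxt step down over the 3 tissues without overlap, Avpr1a is set apart in hypothalamus and Oxtr in ovary.

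Hypothalamus differed from pituitary for 3 of the 4 genes (all but Oxtr), all higher in hypothalamus, against 42.3% of all genes in either direction, 20.8% higher and 21.5% lower. All 4 differed between hypothalamus and ovary, 3 higher and 1 lower in hypothalamus, where 49.3% of all genes passed (22.3% higher and 27.0% lower). Between pituitary and ovary 3 of 4 differed (all but Avpr1a), 2 higher and 1 lower in pituitary, where 43.5% passed (20.3% higher and 23.2% lower). Without the 6 pool arrays these calls did not change: Avp differed by 1.76 (adjusted p = 2.78e-05), 4.59 (1.11e-09) and 2.82 (2.79e-07), and Oxt by 2.88 (1.53e-07), 5.13 (2.39e-10) and 2.24 (1.54e-06) in limma, for the 3 tissue pairs in the same order. The shares of members lie above a background that is itself high, and with 4 genes they support no statement about the group.

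The remaining vasopressin receptors followed other orders. Avpr1b, the receptor of corticotrophs in the anterior lobe, ran from 3.51 to 4.19 in hypothalamus, from 5.19 to 5.72 in pituitary and from 3.22 to 4.02 in ovary. It was 3.28-fold lower in hypothalamus than in pituitary (log2 difference -1.71, limma adjusted p = 2.37e-08) and 3.45-fold higher in pituitary than in ovary (1.79, limma adjusted p = 1.17e-08). Avpr2, the receptor of the kidney collecting duct, ran from 4.21 to 4.68 in hypothalamus, from 4.72 to 5.0 in pituitary and from 4.40 to 4.86 in ovary. The hypothalamic Avpr2 level was lower than the pituitary level by 0.49 (limma difference -0.49, adjusted p = 0.00212), and its other tissue differences did not pass. The hypothalamic values of both receptors and the ovarian values of Avpr1b all lay below the table's median (4.85).

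Genes that work with the peptides were described from lists. Of 13 measured factors and co-transmitters of magnocellular neurons, 9 were higher and 3 lower in hypothalamus than in pituitary (median log2 difference 1.37, against -0.04 over all genes), where 20.8% of all genes passed as higher and 21.5% as lower. By smallest p the list was led by Arnt2 (2.03, adjusted p = 9.29e-10) and Pou3f2 (1.45, adjusted p = 3.00e-07), transcription factors needed for these neurons, and Nos1 (2.72, adjusted p = 3.56e-09) and Th (3.78, adjusted p = 1.42e-08), which make nitric oxide and dopamine (limma). The 3 lower ones, named after their values were seen, were Creb3l1, a transcription factor of the rat Avp gene (-2.28, adjusted p = 9.42e-07), Gal, encoding galanin (-1.30, adjusted p = 4.37e-05), and the granule protein Scg2 (-0.67, adjusted p = 0.0364), by limma. Of 8 measured genes that cut and store prohormones, 1 was higher and 5 were lower in hypothalamus than in pituitary (median -0.92), beside the same shares of all genes. Cpe, which trims the cut ends of peptides, was higher (0.76, adjusted p = 3.83e-06). Pam, which amidates both hormones, was lower (-0.97, adjusted p = 1.21e-06), as were the granule proteins Chga (-1.39, adjusted p = 2.15e-07) and Chgb (-2.34, adjusted p = 4.63e-06), all by limma. Against ovary, 7 of those 8 were higher in hypothalamus and 1 was lower, with a median of 4.31, beside -0.03 over all genes, of which 22.3% were higher and 27.0% lower.

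Downstream of the receptors, 18 of 20 listed Gq pathway genes were measured. Hypothalamus was higher than pituitary for 11 and lower for 2, with a median of 0.46, where 20.8% of all genes were higher and 21.5% lower, and Prkcb (2.52, limma adjusted p = 5.95e-11) and Camk2a (3.64, limma adjusted p = 4.53e-09), both calcium-responsive kinases, led. Between pituitary and ovary 6 were higher and 6 lower (median -0.16, against 0.01 over all genes, of which 20.3% were higher and 23.2% lower). Plcb3, a phospholipase activated by Gq, was lower in pituitary than in ovary (-1.98, limma adjusted p = 9.24e-10), as was Itpr2, a calcium release channel (-1.62, limma adjusted p = 1.19e-08). Plcb4 (1.71, limma adjusted p = 5.27e-07), another phospholipase, was higher in pituitary.

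The pituitary signal of Avp and Oxt was set beside genes of pituicytes, the glia of the posterior lobe. In the rat, Avp and Oxt transcripts are known to be carried in magnocellular axons as far as that lobe. Of 11 listed pituicyte genes, 6 were higher and 2 lower in pituitary than in ovary (median 0.41), where 20.3% of all genes were higher and 23.2% lower. The same list was higher in hypothalamus than in pituitary for 6 genes and lower for 1 (median 0.94, with 20.8% of all genes higher and 21.5% lower), and several of its genes also serve astrocytes. Scn7a, a sodium sensor of such glia, measured 7.54, 7.37 and 6.69 in the stress high, low and pool pituitaries and 8.02, 7.84 and 6.88 in the control ones. Rax, a transcription factor of this lineage, measured 4.82, 5.16 and 5.10 under stress and 5.69, 4.92 and 4.83 in controls. The control high mouse had the highest pituitary Avp, Oxt, Scn7a and Rax of the 6 arrays. None of the other 9 listed genes was highest in that mouse: Nkx2-1, which specifies pituicytes, was highest in the control pool at 5.76. The share of posterior lobe in each gland is not given in the sources used here, and its part in these values was not tested.

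**Figure D2:**
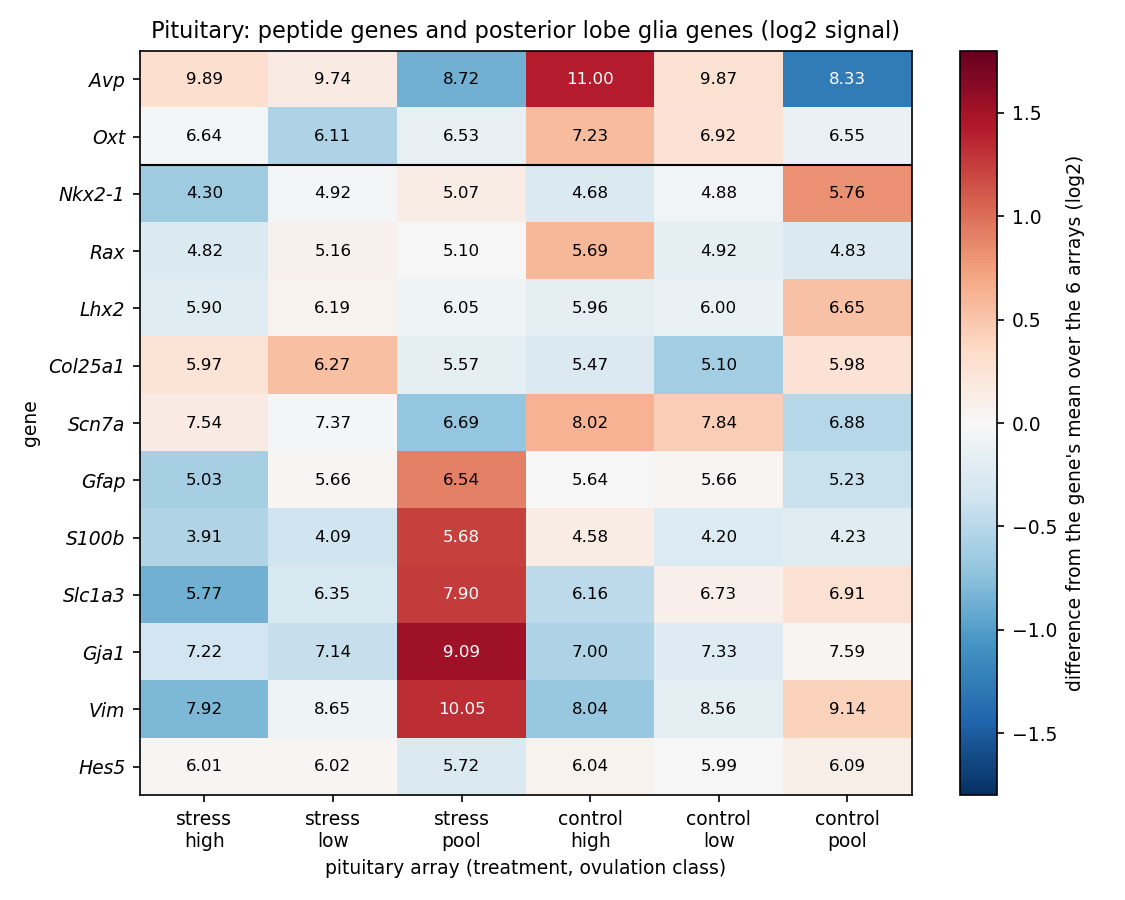
Log2 signal (printed in each cell) of Avp, Oxt and 11 pituicyte genes in the 6 pituitary arrays (columns, by treatment and ovulation class), with colour giving the difference from the gene's mean over the 6 arrays. Avp spans 8.33 to 11.00 with both pools lowest, as for Scn7a, while S100b, Slc1a3, Gja1 and Vim are highest in the stress pool.

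Avp signal was lower in pools of 8 mice than in single mice in every tissue, past the threshold in pituitary and ovary. In hypothalamus the 2 pool arrays averaged 11.17 and the 4 single mice 11.89. The averages were 8.53 in pools and 10.12 in single mice in pituitary, and 6.11 in pools and 7.30 in single mice in ovary. Both pools lay below all 4 single mice in each of the 3 tissues, and the groups did not overlap. This order was found for 15.7% of genes in hypothalamus, 18.7% in pituitary, 16.2% in ovary and 4.19% (929 genes) in all 3. It held for no tissue in Oxt, Avpr1a or Oxtr. Avp was 3.02-fold lower in the pituitary pools than in single pituitaries (log2 difference -1.60, SE 0.34, 95% interval -2.37 to -0.82, adjusted p = 0.0149 in limma with treatment as covariate), where 18.3% of genes passed (11.3% higher and 7.06% lower in pools). In ovary pools it was 2.28-fold lower (-1.19, SE 0.20, -1.65 to -0.73, limma adjusted p = 0.0109), where 10.9% of genes passed (7.36% higher and 3.54% lower). The hypothalamic difference of -0.72 (SE 0.19, -1.14 to -0.29) did not pass (limma adjusted p = 0.0644), where 5.27% did (3.49% higher and 1.79% lower).

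Taken by treatment, the pool minus the mean of its single mice for Avp was -0.72 under stress and -0.71 in controls in hypothalamus. It was -1.09 under stress and -2.10 in controls in pituitary, and -1.16 under stress and -1.22 in controls in ovary. The sign was the same in all 6 cases. The pituitary call was lost without the control pool (-1.09, limma adjusted p = 0.183) and kept without the stress pool (-2.10, limma adjusted p = 0.0423). The ovarian call was lost without the control pool (-1.16, limma adjusted p = 0.212) or the stress pool (-1.22, limma adjusted p = 0.159).

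No other member passed this comparison. Oxt differed by -0.32 (limma adjusted p = 0.579) in hypothalamus, -0.19 (0.628) in pituitary and -0.26 (0.394) in ovary. The Oxt intervals reached from -0.99 to 0.35, from -0.74 to 0.36 and from -0.68 to 0.15 in these tissues, so a lowering as large as that of Avp is within the hypothalamic interval and outside the other intervals. Avpr1a differed by 0.04, -0.02 and 0.00 (limma adjusted p = 0.942, 0.961 and 0.995). Oxtr differed by -0.03, 0.20 and -0.26 (limma adjusted p = 0.957, 0.517 and 0.521). Between Avp and Oxt the difference in pool effect was not tested.

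**Figure D3:**
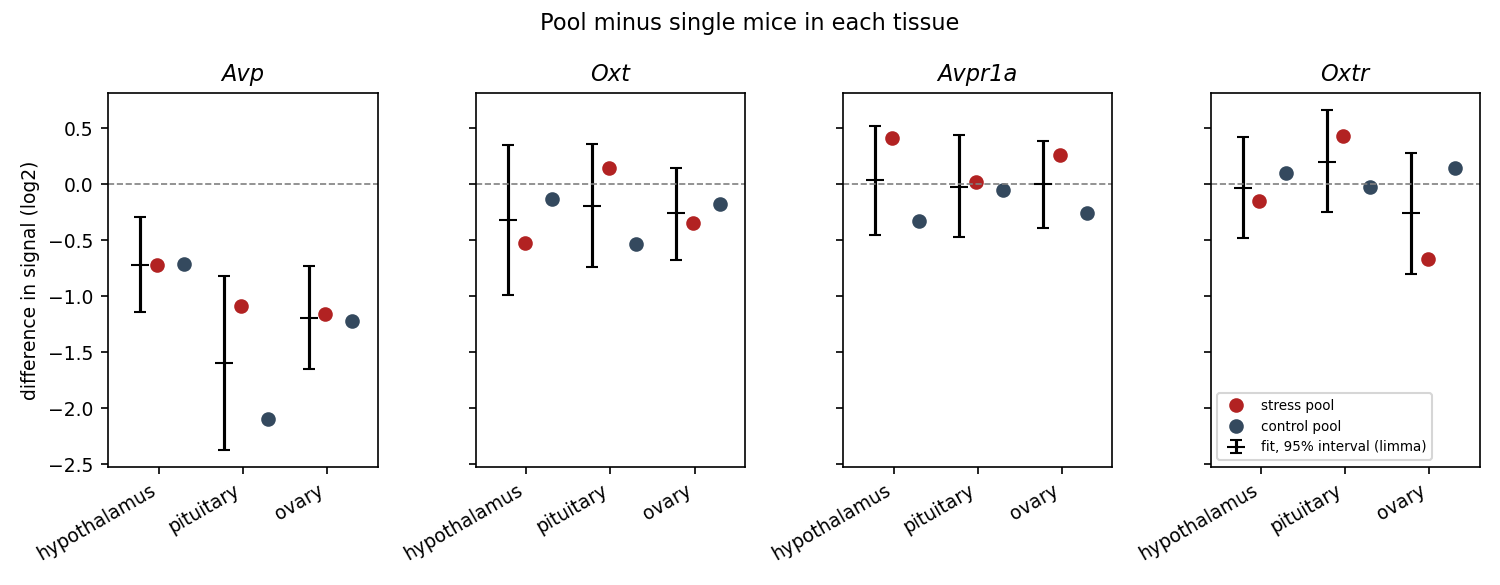
Pool minus single mice (log2 difference in signal, y axis) for the 4 genes in each tissue (x axis), as the limma estimate with its 95% interval (black) and as the stress pool (red) and control pool (blue) minus the mean of their own 2 single mice. All 6 points of Avp lie below 0, between -0.71 and -2.10, and the points of the other genes lie on both sides, except those of Oxt in hypothalamus and ovary.

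In hypothalamus, 4 of 13 magnocellular factors passed as higher in pools and 0 as lower in limma, beside 3.49% of all genes higher and 1.79% lower. They were Gal (1.75, adjusted p = 0.00830), Pdyn, encoding prodynorphin, which vasopressin neurons also make (0.97, adjusted p = 0.0422), and the transcription factors Arnt2 (0.80, adjusted p = 0.0461) and Otp (0.99, adjusted p = 0.0465), all by limma. Of 7 hypothalamic neuropeptide genes, Hcrt, encoding the orexins, passed as higher in these pools (1.73, limma adjusted p = 0.00308) and 0 as lower. Like Avp, 4 of the 7 (Pmch, Npy, Sst and Cartpt) had both pools below all 4 single hypothalami, an order of 15.7% of all genes, and their differences of -0.50, -0.39, -0.35 and -0.34 did not pass (limma adjusted p = 0.154, 0.347, 0.290 and 0.418). Sst and Cartpt had that order in ovary too. In pituitary 7 of 13 magnocellular factors were higher in pools and 0 lower, with Gal at 2.04 (limma adjusted p = 0.00584), where 11.3% of all genes were higher and 7.06% lower. Of the pituicyte genes 3 of 11 were higher in the pituitary pools, with Vim leading at 1.30 (limma adjusted p = 0.0195). Scn7a alone of the 11 passed as lower (-0.90, limma adjusted p = 0.0134). The summed linear signal of the 11 genes was 2325 in the stress pool and 1364 in the control pool, against 915 to 1164 in single pituitaries. In ovary this sum was 4584 to 5481 in single mice and 7426 to 7754 in pools. Vim and Gja1 averaged 11.82 and 10.70 in ovary, against 8.73 and 7.56 in pituitary, while 6 of the 11 genes passed as higher in pituitary than in ovary. Slc1a3, Gfap and S100b were also highest in the stress pool among pituitary arrays, at 7.9, 6.54 and 5.68, and averaged 5.1, 4.81 and 4.84 in ovary. The stress pituitary pool also held ovarian transcripts, and their part in the sum was not tested. Some genes of neurons were also higher in these pools. The neuropeptide sum was 756 in the stress and 516 in the control pituitary pool, against 313 to 392 in single pituitaries. Among these genes, Trh measured 6.92 in the stress pool and 5.44 in the control pool, against 3.98 to 4.73 in single mice, and passed (1.68, limma adjusted p = 0.00688). Npy was at 8.41 in the stress pool and 5.92 in the control pool, against 5.34 to 5.83 in single mice, and Pmch at 3.60 in the stress pool and 6.67 in the control pool, against 3.80 to 4.30. Of 9 neuron genes, 6 in the stress pool and 2 in the control pool lay above all 4 single pituitaries, and 1 and 0 lay below them. Both pools together lay above all 4 for 24.4% of all genes. The share for 1 pool alone can only be larger and was not counted, so no excess is read from these counts. Calb2 (3.21, limma adjusted p = 0.00992) and Nefl (1.12, limma adjusted p = 0.0154) passed as higher, and 0 neuron genes as lower. The part of neuronal tissue in the pituitary pool differences was not tested. Of 8 measured prohormone genes, 1 passed as higher in pools and 0 as lower in hypothalamus, and likewise 1 and 0 in pituitary, beside the shares above. In ovary 2 passed as higher and 1 as lower, where 7.36% of all genes were higher and 3.54% lower. The lower one was Cpe, which had both pools below all 4 single mice in every tissue, an order of 4.19% of all genes. Its difference was -0.63 in each tissue and passed in ovary alone (limma adjusted p = 0.0351, against 0.0818 in hypothalamus and 0.0602 in pituitary).

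Transcripts of ovary and pituitary were found in arrays of other tissues. The summed linear signal of 9 ovarian genes was 4099 in the stress pituitary pool, against 437 in the control pituitary pool, while single pituitaries held 300 to 355. In the stress pool 8 of the 9 lay above every single pituitary, and in the control pool 2 did. Both pituitary pools together lay above all 4 single mice for 24.4% of all genes. The share for 1 pool alone can only be larger and was not counted, so no excess is read from the 1-pool counts. In the hypothalamic stress pool this sum was 2181, against 347 in its control counterpart and 266 to 389 in single hypothalami. The sum of 6 anterior pituitary hormone genes was 4390 in the stress pool and 3062 in the control pool of ovary, against 141 to 188 in single ovaries. In hypothalamus that sum did not follow the pools: it was 474 in the stress and 612 in the control pool, while the single mice had 824 (high) and 342 (low) under stress and 280 (high) and 1111 (low) in controls. Ovarian Avp was 6.11 to 6.12 in the pools and 6.99 to 7.55 in single mice. Pituitary Avp was 8.33 to 8.72 in the pools and 9.74 to 11.00 in single mice. The part of transcripts from other tissues in the pool differences was not tested.

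None of the 4 genes passed the test between stress and control arrays in any tissue. The test called 0 of 22180 genes in each tissue (0% of all), and also 0 with ovulation class as a block, which pairs stress with control arrays. An unadjusted p under 0.05 was reached by 245 genes (1.10%) in hypothalamus, 294 (1.33%) in pituitary and 592 (2.67%) in ovary without the block, and by 923 (4.16%), 1110 (5.0%) and 2198 (9.91%) with it. Of the 4 members 0 reached it without the block in any tissue. With the block 1 did, Oxt in ovary (unadjusted p = 0.0457, limma adjusted p = 0.501). For Avp, the mean was 11.66 ± 0.42 under stress and 11.64 ± 0.46 in control hypothalamus, 9.45 ± 0.63 under stress and 9.73 ± 1.34 in control pituitary, and 6.88 ± 0.72 under stress and 6.93 ± 0.73 in control ovary (SD, n = 3 each). The stress minus control differences were 0.02 (95% interval -0.64 to 0.69), -0.28 (-1.70 to 1.13) and -0.04 (-1.02 to 0.94) in these tissues. By class, stress minus control in hypothalamus was -0.16 for the high class, 0.21 for the low class and 0.02 for the pool class. In pituitary the Avp values were -1.11, -0.13 and 0.39 for high, low and pool, and in ovary 0.41, -0.53 and 0.00. The classes shared no sign in any of the 3 tissues. The pituitary value was 0.35 without the control high mouse and 0.08 without the stress pool.

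Oxt did not pass the test between stress and control in any tissue. Its 3 class differences were all below 0 in pituitary and in ovary, though the pituitary pool (-0.02) and the ovarian high class (-0.03) lay near 0. The share of all genes with 3 classes of the same sign was not counted. Such signs are not particular to Oxt: for Pdyn the high, low and pool differences were -0.21, -0.78 and -0.33 in pituitary and -0.25, -0.43 and -0.02 in ovary. The pituitary mean of Oxt was 6.43 ± 0.28 under stress and 6.90 ± 0.34 in controls (SD, n = 3 each). By class the difference was -0.58 for high, -0.81 for low and -0.02 for pool, with a mean of -0.47 (95% interval -1.07 to 0.12, limma adjusted p = 0.9999, unadjusted 0.106). The ovarian mean was 4.20 ± 0.33 under stress and 4.59 ± 0.12 in controls, and the differences were -0.03, -0.65 and -0.51 for high, low and pool (mean -0.40, -0.87 to 0.08, limma adjusted p = 0.999, unadjusted 0.0901). With class as a block the Oxt intervals were -0.96 to 0.01 in pituitary (unadjusted p = 0.0557, limma adjusted p = 0.856) and -0.78 to -0.01 in ovary. In hypothalamus, where Oxt is made, the mean was 9.53 ± 0.35 under stress and 9.47 ± 0.53 in controls, and the class differences were -0.15, 0.54 and -0.19 (mean 0.07, -0.61 to 0.74). Stress and control values overlapped in all 3 tissues. Without the pools the Oxt difference was -0.70 in pituitary (limma adjusted p = 0.690) and -0.34 in ovary (0.794). The stress difference of Oxt in hypothalamus minus that in pituitary was 0.54 (-0.10 to 1.18) and did not pass as an interaction (limma adjusted p = 0.9998).

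For Avpr1a, stress minus control came to -0.26 (95% interval -0.74 to 0.22) in hypothalamus, -0.31 (-0.81 to 0.19) in pituitary and 0.16 (-0.25 to 0.57) in ovary. Its class differences for high, low and pool were -0.38, -0.64 and 0.23 in hypothalamus, 0.01, -0.68 and -0.27 in pituitary, and -0.04, 0.01 and 0.51 in ovary. For Oxtr the differences were -0.25 (-0.70 to 0.20) in hypothalamus, 0.03 (-0.49 to 0.54) in pituitary and -0.03 (-0.59 to 0.53) in ovary. The classes of Oxtr gave 0.05, -0.38 and -0.42 in hypothalamus, -0.15, -0.09 and 0.32 in pituitary, and 0.64, -0.15 and -0.58 in ovary. Without the pools, the ovarian difference was -0.02 for Avpr1a and 0.25 for Oxtr, and the pituitary difference of Oxtr was -0.12, each of the opposite sign. Neither receptor kept its sign over the 3 classes in any tissue. With these intervals a change of 1 on the log2 scale is outside the range for both receptors in each tissue, and within it for Avp in pituitary and ovary and for Oxt in pituitary. With class as a block the Avp intervals were -0.95 to 0.38 in pituitary and -0.51 to 0.42 in ovary. A change of 1 then lay outside the intervals of all 4 genes in each tissue. That fit leaves fewer residual degrees of freedom, and its intervals take part of their spread from all genes. In pituitary the Avp class differences ran from -1.11 (high) to 0.39 (pool), so the blocked interval does not exclude such a change.

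**Figure D4:**
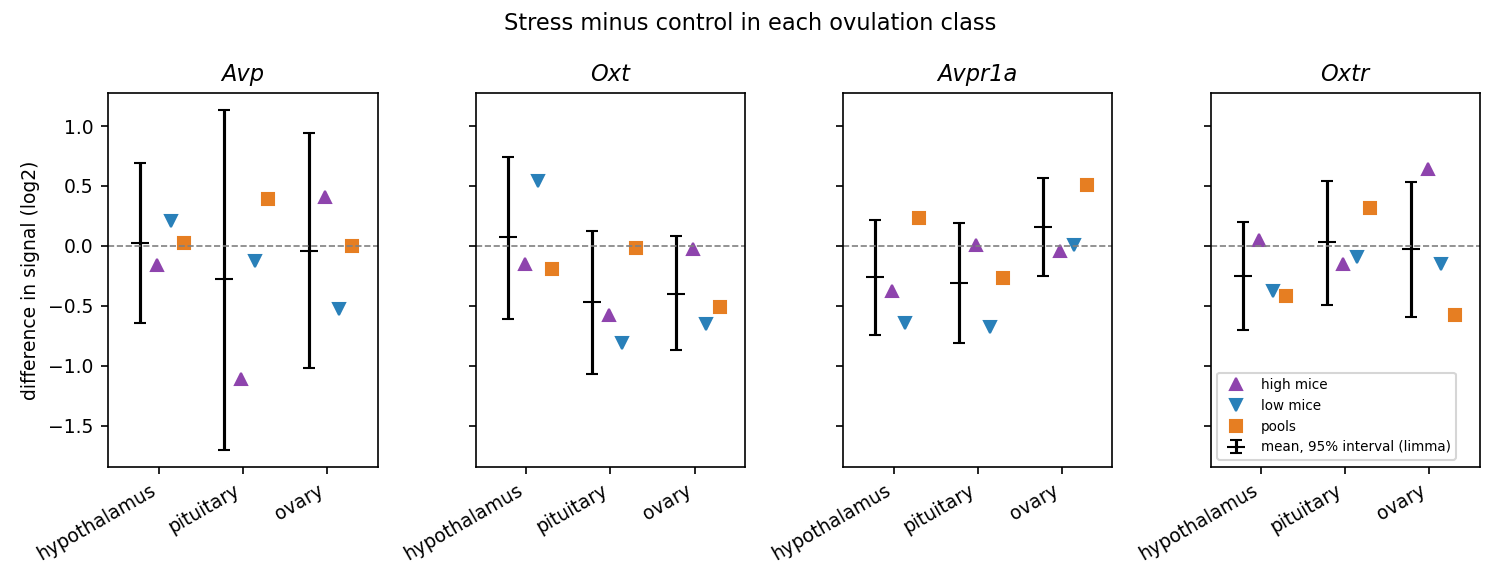
Stress minus control (log2 difference in signal, y axis) for the 4 genes in each tissue (x axis), as the mean with its 95% limma interval without class as a block (black) and separately for the classes high, low and pool. Every interval drawn includes 0. Of the 4 genes drawn, only Oxt has all 3 classes on the same side in a tissue, below 0 in pituitary (pool at -0.02) and ovary (high at -0.03). This is not particular to Oxt: Pdyn, a listed gene not drawn, is also below 0 in all 3 classes of both tissues.

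Of the 12 gene lists, 0 genes passed between stress and control in any tissue. The magnocellular factors had medians of 0.08 in hypothalamus, 0.11 in pituitary and -0.10 in ovary. Medians of the Gq genes were -0.04, 0.01 and -0.01 in the same tissues, beside -0.02, -0.04 and -0.02 over all genes. Differences of the stress effect between tissues called 0 genes in each of 3 pairs of tissues, and 0% passed. An unadjusted p under 0.05 was reached by 837 genes (3.77%) for hypothalamus minus pituitary, 558 (2.52%) for hypothalamus minus ovary and 846 (3.81%) for pituitary minus ovary.

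The high minus low difference of Avp was 0.04 under stress and 0.42 in controls in hypothalamus, 0.15 under stress and 1.14 in controls in pituitary, and 0.55 under stress and -0.39 in controls in ovary. For Oxt it was 0.37 under stress and 1.05 in controls in hypothalamus, 0.54 under stress and 0.30 in controls in pituitary, and 0.51 under stress and -0.10 in controls in ovary. In hypothalamus and pituitary all these values were above 0, down to 0.04 for Avp in stress hypothalamus, and in control ovary both genes were below 0. Within a group the 3 tissues come from the same high and low mouse. The share of all genes with these signs was not counted. Each value compares 2 mice and was not tested.

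The genes most like each member were found by Pearson correlation of log2 signal over the 18 arrays, which share tissues and animals. For Avp these were Slc39a12 (r = 0.982), Ccdc190 (0.976), Rims2 (0.972), Khdrbs2 (0.971) and Hdgfl3 (0.970). Oxt itself reached 0.957 with Avp. The nearest to Oxt were Otud7a (0.986), Omg (0.983), Slc45a1 (0.982), Hap1 (0.981) and Aatk (0.981). Avpr1a was nearest to Fa2h (0.962), Atp6v1a (0.959), Gpr37 (0.957), Sst (0.954) and Frmpd3 (0.954). Oxtr was nearest to Rgcc (0.979), Smpdl3b (0.976), Elovl5 (0.976), Ermp1 (0.976) and Wnt4 (0.975). Over the 6 hypothalamic arrays alone, Oxt and Avp had r = 0.676, and the leading genes were Bloc1s4 (0.997) for Avp and Gmppb (0.993) for Oxt.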

How the data were processed

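RNA of 18 samples was measured on Affymetrix arrays, from 6 ug of total RNA per the labels. The authors deposited log2 signals, 1 value for each of 41345 clusters and array. Per the submitters' processing notes, Transcriptome Analysis Console was used; its version, background correction and normalization are not given in the sources used here. The log base was inferred: 13.66, the top value, is over the natural log of a full 16-bit reading (11.09) and under its log2 (16). Array medians ran from 4.75 to 5.03, correlations within a tissue from 0.928 to 0.988, and 0 pairs were identical. Depth has no meaning for arrays, and the number of arrays limits the precision.

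Clusters naming exactly 1 gene (23521) were kept, and the highest by mean was used for the 1082 genes with several. Gene names of 23328 clusters matched GRCm38.p6, which changed 0 symbols. Tests used limma 3.58.1 under R 4.3.3 (lmFit, eBayes) over all 22180 genes, two-sided, with Benjamini-Hochberg adjustment and a threshold of 0.05. No low values were filtered. Stress was fitted within a tissue (4 residual degrees of freedom, fewer with class as a block). Pool against single mice had treatment as covariate (3), and tissue was fitted on all arrays with mouse or pool as a block (10). Interactions had 8. The steps were tested on simulated data. Avp and Oxt share a closely similar exon, and cross-hybridisation between their probes was not tested. The p-values assume that class differences belong to the spread.

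The members and the 12 gene lists were chosen with earlier results of these data known. The text names the 4 members, up to 4 genes of a list by smallest p or defining marker (others are said to be chosen after their values were seen), and the 5 nearest genes by correlation, passing over predicted names. Scn7a, Rax and Nkx2-1 were named as pituicyte markers. Whether ovulation class pairs stress with control was checked from deviations from group means: 9 same-class correlations ran from 0.359 to 0.727 and 18 different-class ones from -0.521 to 0.321. These ranges mix pools with single mice, and deviations from a mean of 3 arrays sum to 0, so the check mostly sets pools apart from single mice. Among single mice, same-class values ran from 0.359 to 0.52 and high against low from -0.05 to 0.321. In pituitary high with high gave 0.366 and low with low 0.359, against 0.313 and 0.321 for high with low. Alternatives were quantile normalization, centring on the array median, a filter at the median level, an intensity trend, blocks, and leaving out pools or single arrays. Figures used matplotlib 3.10.9 under Python 3.11.15.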

Additional observations from a re-analysis of the deposited data

Results flagged for a closer look

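Among the 4 single mice, the pituitary Avp signal of the high mouse of the control group was 11.00, and the other 3 mice had 9.74, 9.87 and 9.89, so that its gap to the nearest mouse exceeds Dixon's limit for 4 values. Chance passes that limit in about 1 of 20 groups, and 24 groups were examined (12 of 4 single mice, 12 of 6 arrays). The same array had the highest pituitary Oxt (7.23), Scn7a (8.02) and Rax (5.69), while the other 9 of 11 listed pituicyte genes were highest in other arrays. The part of these in the Avp value was not tested.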

How the results depend on the processing

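The tissue differences of Avp, Oxt and Avpr1a kept their direction and their side of the threshold under every alternative run, as did those of Oxtr from ovary. Oxtr in hypothalamus minus pituitary passed when arrays were centred on their medians (0.37, adjusted p = 0.0458) and ran from 0.15 to 0.36 when single arrays were left out. Centring moved the median of all genes from -0.04 to 0.10 in that comparison, and from -0.04 to -0.11 for stress minus control in pituitary. No stress difference passed under any alternative. With ovulation class as a replicate block, 0 genes passed in each tissue, Oxt in ovary stayed at -0.40 (adjusted p = 0.501), and the genes with an unadjusted p under 0.05 numbered 923 against 245 in hypothalamus, 1110 against 294 in pituitary and 2198 against 592 in ovary. Without the mouse or pool as a block, no tissue call of the 4 genes changed. Signs of small stress differences turned: Oxtr in pituitary was -0.04 after centring and -0.12 without pools, and without pools Avpr1a in ovary was -0.02 and Oxtr in ovary 0.25. Leaving out single arrays gave stress differences from -0.22 to 0.26 for Avp and -0.18 to 0.35 for Oxt in hypothalamus, -0.98 to 0.35 for Avp and -0.12 to 0.16 for Oxtr in pituitary, and -0.45 to 0.34 for Avp and -0.23 to 0.19 for Oxtr in ovary.

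For pool minus single mice, Avp in hypothalamus (-0.72) passed among genes at or above the median level (adjusted p = 0.0321, with fewer genes tested and 1797 called against 1169) and with an intensity trend (-0.72, 0.0234). Avpr1a turned to -0.05 in hypothalamus, 0.06 in pituitary and 0.04 in ovary with quantile normalization, and to 0.06 in pituitary and 0.06 in ovary with centring, as Oxtr did to 0.03 in hypothalamus. Leaving out single arrays gave 30 to 2042 called genes in hypothalamus, 662 to 3802 in pituitary and 69 to 2009 in ovary. The lowest counts were 30 without the stress pool in hypothalamus, 662 without the stress pool in pituitary and 69 without the control pool in ovary. Avp ran from -2.10 to -1.09 in pituitary and from -1.31 to -1.07 in ovary. Avpr1a ran from -0.33 to 0.41, -0.10 to 0.06 and -0.26 to 0.26 over the 3 tissues, Oxtr from -0.15 to 0.10, -0.02 to 0.43 and -0.67 to 0.15, and Oxt from -0.53 to 0.15 in pituitary.

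For hypothalamus minus pituitary, the difference of the stress effect was -0.17 without pools for Avpr1a, and with single arrays left out ran from -0.06 to 0.19 for Avpr1a, -0.16 to 0.69 for Avp and -0.52 to 0.00 for Oxtr. For hypothalamus minus ovary it ran from -0.19 to 0.39 for Avp and -0.49 to 0.05 for Oxtr. For pituitary minus ovary, Oxtr was 0.00 with centring and -0.37 without pools and ran from -0.22 to 0.32, Avp from -0.62 to 0.23 and Oxt from -0.27 to 0.14. The cause of these turns was not tested. Each member has 1 cluster, so averaging clusters gave no alternative, and Avpr1a or Oxtr fell below the median level in some comparisons and had no filtered value there. Signal over background could not be set, since no detection call is used here.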
